A study of Mus musculus with 12 samples.

Results

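Vascular markers were followed in RNA of sorted mouse glioma cells, as 10 genes that mark blood vessel endothelium in brain: Cd93, Eng, Pecam1, Tek, Tie1, Flt1, Kdr, Cldn5, Esam and Emcn. All 10 were measured among the 19938 genes with a probe set assigned to a single symbol, each by 1 probe set, and they were picked with their pattern across these arrays already known. Tumor cells carrying high or low levels of phosphorylated EGFR were compared on 12 Affymetrix Mouse Gene 1.0 ST arrays, with 6 pEGFR-Hi and 6 pEGFR-Lo arrays, 1 mouse per array. Values are log2 RMA intensities, so a difference of 1 is 2-fold. A gene was called when limma gave a Benjamini-Hochberg adjusted p under 0.01 over all genes and the groups differed by at least 2-fold.

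Both pEGFR-Hi and pEGFR-Lo cells derive from neural progenitors of the subventricular zone of mice lacking Ink4a/Arf, made tumorigenic with the human EGFRvIII receptor and tagged with ZsGreen. Each group is a single line, and both lines came out of the same progenitor pool, so the spread among mice describes repeated grafts of 1 line and not a spread among lines. FVB mice received 2 µl at 200000 cells per µl into the brain, and the sources used here do not give the age of the mice. Brains were taken near the median survival of each group, which came later in pEGFR-Lo mice, so line and time since injection cannot be told apart. After papain digestion and a Percoll step against myelin and red cells, living ZsGreen+ cells were sorted. Endothelial cells of the host were not the population sorted for.

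Endothelial cells line vessels and are held together by junction proteins, among them PECAM1, ESAM and, at the barrier of brain vessels, claudin-5. They respond to VEGF through KDR and FLT1 and to angiopoietins through TEK and TIE1, while endoglin (Eng) helps their receptors bind ligands of the BMP and TGF-beta family. CD93 is a group XIV C-type lectin on endothelial and myeloid cells that takes part in adhesion to the vessel matrix, and both CD93 and endoglin are raised in the vessels of gliomas.

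In the sorted RNA the means of all 14 measured glial progenitor genes were above background in at least 1 group. Sox2, a progenitor transcription factor, lay between 9.28 and 9.72 in pEGFR-Hi and between 8.81 and 9.18 in pEGFR-Lo, and Olig2, a transcription factor of the oligodendrocyte lineage, between 8.76 and 9.19 in pEGFR-Hi and between 8.45 and 8.92 in pEGFR-Lo. A background level of 4.10 was set as the 95th percentile of 1026 olfactory receptor genes. Cdh5, the endothelial cadherin, ranged from 3.47 to 4.0 in pEGFR-Hi and from 3.44 to 4.16 in pEGFR-Lo. Pdgfrb of pericytes, Csf1r and Aif1 of microglia and Ptprc of all leukocytes were at or near background in both groups as well. Other genes of these cells were not: 20 of 34 endothelial, 16 of 22 pericyte, 13 of 27 microglia and 7 of 10 platelet genes were above background in at least 1 group, beside 13778 of all 19938 genes. Acta2, a defining gene of smooth muscle, was above background in every mouse. It averaged 6.72 ± 0.62 in pEGFR-Hi and 6.79 ± 0.33 in pEGFR-Lo. Array medians were 4.81 to 4.88, and arrays of 1 group correlated at 0.985 to 0.994. Replicates 3 and 6 of pEGFR-Lo stood apart in interferon-response genes, with a mean over 8 genes of 5.68 and 5.58 against 7.05 to 7.74 in the other 4 pEGFR-Lo mice. The differences of Cd93, Eng and Emcn are also given without these replicates.

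Among the 10 vascular markers, limma and SAM both called Cd93 and Eng toward pEGFR-Lo and 0 markers toward pEGFR-Hi. Over all genes limma called 9.05%, with 3.99% toward pEGFR-Hi and 5.06% toward pEGFR-Lo, and SAM called 9.08%, with 4.02% toward pEGFR-Hi and 5.06% toward pEGFR-Lo. When the fold limit was dropped and an adjusted p under 0.05 sufficed, Flt1 passed toward pEGFR-Hi and Cd93, Eng and Emcn passed toward pEGFR-Lo, beside 36.0% of all genes, 19.4% toward pEGFR-Hi and 16.6% toward pEGFR-Lo. The same markers passed at an unadjusted p under 0.05, 1 toward pEGFR-Hi and 3 toward pEGFR-Lo. No share of all genes is given for that unadjusted threshold, here or for the lists below. Such a share is at least the 36.0% found for the adjusted p, and no shift of a list is read from these counts. Because the markers were chosen from this contrast, their count is a description and nothing is read from it. The median difference (pEGFR-Hi minus pEGFR-Lo) over the 10 markers was -0.10, beside 0.01 over all genes. In 4 of the 10, Cd93, Eng, Flt1 and Emcn, the values of the groups did not overlap, beside 23.3% of all genes. Group means were above background in at least 1 group for 5 of the 10: Cd93, Eng, Flt1, Kdr and Cldn5. In bulk RNA of sorted cells, fewer cells of a type and less RNA per cell cannot be told apart.

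**Figure D1:**
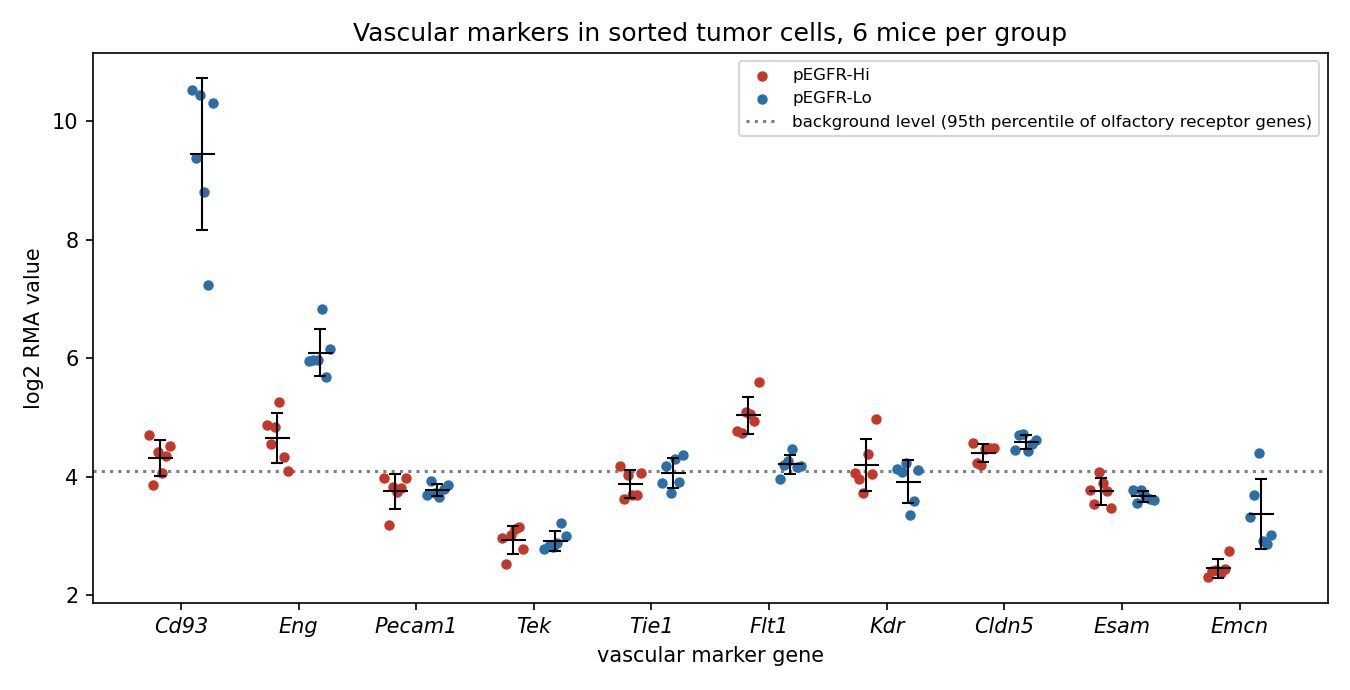
Log2 RMA value (y axis) of each vascular marker (x axis) in 6 pEGFR-Hi mice (red, left of each pair) and 6 pEGFR-Lo mice (blue, right). Points are mice, bars are mean and SD, and the dotted line is the background level of 4.10; Cd93 and Eng stand higher in every pEGFR-Lo mouse, while Pecam1, Tek and Esam lie at or under the line in both groups.

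Cd93 (probe set 10488382) had values of 4.70, 3.85, 4.42, 4.06, 4.35 and 4.52 in pEGFR-Hi replicates 1 to 6, against 10.52, 9.38, 10.44, 8.80, 7.24 and 10.30 in pEGFR-Lo replicates 1 to 6. Every pEGFR-Lo mouse was higher than every pEGFR-Hi mouse, and pEGFR-Hi values straddled background, with 4 of 6 above it. The means were 4.32 ± 0.31 in pEGFR-Hi and 9.45 ± 1.28 in pEGFR-Lo (SD over 6 mice in each group). The difference was -5.13 (95% interval -6.06 to -4.20), or 35.0-fold higher in pEGFR-Lo. Without pEGFR-Lo replicates 3 and 6 the difference was -4.67. Cd93 also varied widely among pEGFR-Lo mice, 9.72-fold between the lowest and the highest. Its SD in pEGFR-Lo exceeded that of 99.4% of the 500 genes nearest to it in mean level, and its SD in pEGFR-Hi exceeded that of 87.4%.

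Eng (probe set 10471486), which encodes the co-receptor endoglin, had values of 4.87, 4.56, 4.84, 5.26, 4.34 and 4.09 in pEGFR-Hi replicates 1 to 6, against 5.96, 5.98, 5.97, 6.83, 5.68 and 6.16 in pEGFR-Lo replicates 1 to 6. The groups did not overlap, and all pEGFR-Lo mice and 5 of 6 pEGFR-Hi mice were above background. The means were 4.66 ± 0.42 in pEGFR-Hi and 6.10 ± 0.39 in pEGFR-Lo, a difference of -1.44 (95% interval -1.86 to -1.01), or 2.71-fold higher in pEGFR-Lo. Without pEGFR-Lo replicates 3 and 6 the difference of Eng was -1.45. Spread within a group was alike for Eng in both, at 2.25-fold between the lowest and the highest pEGFR-Hi mouse and 2.22-fold in pEGFR-Lo. Replicate 4 was the highest mouse for Eng in each group, whereas in pEGFR-Lo it was the second lowest for Cd93.

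Among the VEGF receptors, Flt1 ran in the opposite direction to Cd93 and Eng and Kdr did not separate the groups. Flt1 (probe set 10535807), the receptor that binds VEGF tightly and limits signaling through KDR, had values of 4.78, 4.75, 5.10, 5.06, 4.94 and 5.60 in pEGFR-Hi replicates 1 to 6, against 3.97, 4.20, 4.27, 4.46, 4.17 and 4.19 in pEGFR-Lo. All pEGFR-Hi mice were higher than all pEGFR-Lo mice. The difference was 0.83 (95% interval 0.55 to 1.11), 1.78-fold higher in pEGFR-Hi, short of the 2-fold limit. Kdr, the main signaling receptor for VEGF-A, averaged 4.20 ± 0.44 in pEGFR-Hi and 3.92 ± 0.36 in pEGFR-Lo, a difference of 0.28 (95% interval -0.14 to 0.69). Its values lay around background in both groups and overlapped.

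The angiopoietin receptors were at background. Tek, the receptor for angiopoietins, averaged 2.93 ± 0.23 in pEGFR-Hi and 2.92 ± 0.17 in pEGFR-Lo, a difference of 0.01 (95% interval -0.23 to 0.25), and no mouse was above background. Tie1, its partner receptor, averaged 3.88 ± 0.24 in pEGFR-Hi and 4.06 ± 0.25 in pEGFR-Lo, a difference of -0.18 (95% interval -0.46 to 0.09). Only 1 pEGFR-Hi mouse and 3 pEGFR-Lo mice were above background for Tie1, and the groups overlapped.

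The junction and surface proteins of endothelium did not follow Cd93 and Eng, with the exception of Emcn, whose group means both lay below background. Pecam1, an adhesion molecule of endothelium, platelets and leukocytes, averaged 3.75 ± 0.29 in pEGFR-Hi and 3.78 ± 0.11 in pEGFR-Lo, a difference of -0.02 (95% interval -0.28 to 0.23). Esam, a junctional adhesion molecule, averaged 3.76 ± 0.22 in pEGFR-Hi and 3.67 ± 0.09 in pEGFR-Lo, a difference of 0.09 (95% interval -0.13 to 0.30), and like Pecam1 was above background in no mouse. These intervals allow a difference of at most 0.30 on the log2 scale for either gene, on arrays where values this low may be compressed. Cldn5, the claudin of the blood-brain barrier, was above background in all 12 mice, at 4.40 ± 0.15 in pEGFR-Hi and 4.59 ± 0.12 in pEGFR-Lo. Its difference was -0.18 with a 95% interval of -0.37 to 0.005, and the groups overlapped.

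Emcn, a sialomucin of venous and capillary endothelium, had values of 2.31, 2.42, 2.42, 2.39, 2.44 and 2.75 in pEGFR-Hi replicates 1 to 6, against 3.32, 3.70, 4.41, 2.92, 2.86 and 3.02 in pEGFR-Lo. The pEGFR-Lo mice were all higher, but only replicate 3 of pEGFR-Lo exceeded background, so no fold is given. The difference was -0.92 (95% interval -1.37 to -0.47), which was not called. It was called when pEGFR-Lo replicate 4 (-1.01) or 5 (-1.02) was left out, and was -0.75 without pEGFR-Lo replicates 3 and 6.

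Outside the 10 markers, 34 further genes common to endothelium split in direction, and 14 of them were at background in both groups. Of the 34, 4 were called higher in pEGFR-Hi and 1 higher in pEGFR-Lo, with a median difference of -0.04. Those higher in pEGFR-Hi were Bcl6b, a transcriptional repressor, at 7.99 ± 0.61 in pEGFR-Hi and 4.82 ± 0.39 in pEGFR-Lo (8.99-fold, adjusted p = 4.02e-08 from limma), the sialomucin Podxl (3.13-fold), the transcription factor Sox18 (2.71-fold) and the surface protein Ecscr (2.05-fold, not called without pEGFR-Hi replicate 1 or 5 or without pEGFR-Lo replicate 3). The 1 called toward pEGFR-Lo, as Cd93 and Eng were, was Clec14a, a group XIV lectin in the same family as CD93, at 2.99 ± 0.14 in pEGFR-Hi and 4.13 ± 0.14 in pEGFR-Lo (adjusted p = 3.97e-08 from limma). Its pEGFR-Lo mean was barely above background, which gives only a bound of at least 1.02-fold. Plvap, the diaphragm protein of fenestrated vessels, was 8.64 ± 0.12 in pEGFR-Hi and 9.24 ± 0.16 in pEGFR-Lo, short of the 2-fold limit. Vwf, the clotting factor stored in endothelium and platelets, stayed between 4.46 and 4.75 in pEGFR-Hi and between 4.48 and 4.86 in pEGFR-Lo.

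**Figure D2:**
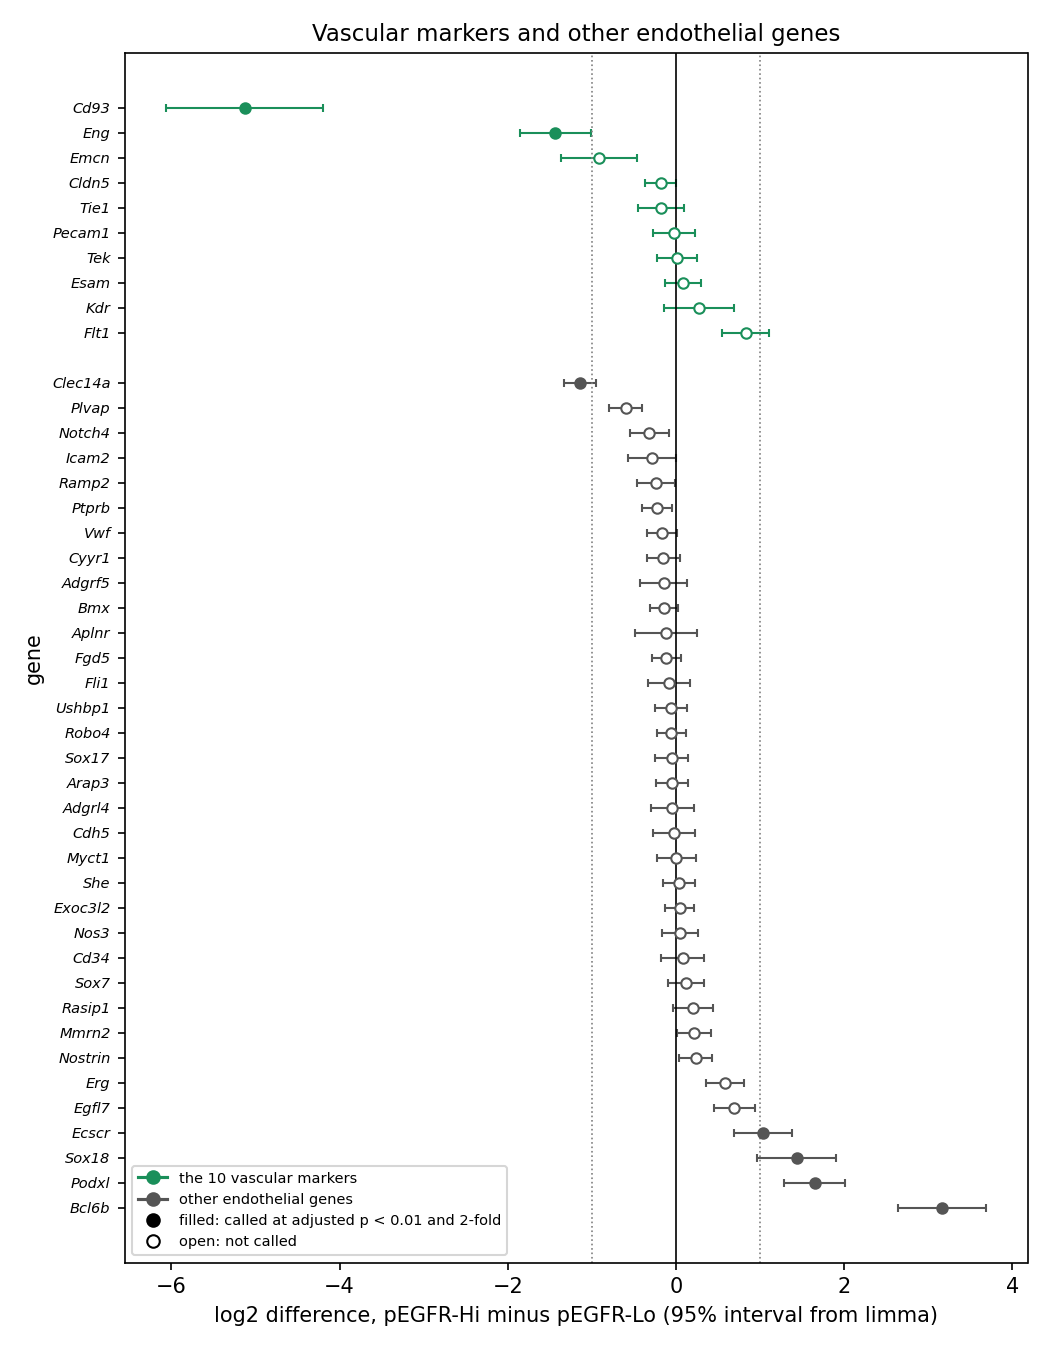
Log2 difference, pEGFR-Hi minus pEGFR-Lo (x axis), with its 95% interval from limma, for the 10 vascular markers (green) and 34 other endothelial genes (gray), 1 gene per row; 6 mice per group. Filled points were called and dotted lines mark 2-fold; Cd93 stands at -5.13 and Bcl6b at 3.17, with most of the other genes near 0.

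The mean of the 34 endothelial genes ranged from 4.51 to 4.65 in pEGFR-Hi and from 4.28 to 4.49 in pEGFR-Lo, so the pEGFR-Lo mice were all lower, where for Cd93 and Eng they were all higher. The mean over these genes was thus higher in pEGFR-Hi while their median difference was slightly negative, since Bcl6b and the other genes called toward pEGFR-Hi weigh on the mean. Within a group of 6 mice, no relation of either marker with that mean passed the test. With 6 mice, and 14 of the 34 genes at background in both groups, the test could miss a relation and excludes none. In pEGFR-Hi, Pearson's r with the endothelial mean was -0.14 for Cd93 (exact permutation p = 0.797; Spearman's rho 0.20, p = 0.714) and 0.57 for Eng (exact permutation p = 0.219; rho 0.43, p = 0.419). In pEGFR-Lo it was -0.47 for Cd93 (exact permutation p = 0.374; rho -0.60, p = 0.242) and -0.29 for Eng (exact permutation p = 0.594; rho -0.20, p = 0.714). Cd93 and Eng were correlated with each other at -0.21 in pEGFR-Hi (exact permutation p = 0.682; rho -0.086, p = 0.919) and at 0.093 in pEGFR-Lo (exact permutation p = 0.901; rho -0.086, p = 0.919). Over these 6 two-sided relations the Benjamini-Hochberg adjusted p was 0.901 for each r and 0.919 for each rho. Without the 2 mice farthest from the median of the x measure, r in pEGFR-Hi was 0.66 for Cd93 with the mean, -0.02 for Eng with the mean and 0.35 for Cd93 with Eng, and in pEGFR-Lo -0.36, 0.80 and 0.10 for the same relations. Leaving out mice thus changed the sign of some of these relations.

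The genes whose values most resembled those of Cd93 over the 12 mice, after each group mean was taken out, were searched among the 13493 genes above background in pEGFR-Lo. Of the other vascular markers only Eng, Flt1 and Cldn5 met that filter, so Pecam1, Tek, Tie1, Kdr, Esam and Emcn were not ranked. The highest residual r with Cd93 were Itga2, an integrin subunit that binds collagen (0.954), Ankrd50 (0.940), the receptor phosphatase Ptprg (0.938), the histone deacetylase Hdac4 (0.930) and Armcx4 (0.925). Of these Ankrd50 and Ptprg were also called higher in pEGFR-Lo, with differences of -1.03 and -1.30, and Ankrd50 was not called without pEGFR-Lo replicate 1, 3 or 6. The residual r of Cd93 was 0.232 with Cldn5, 0.025 with Eng and -0.063 with Flt1. For Eng the highest were Slc45a3 (0.859), Adamtsl2 (0.841), Snord55 (0.836), Gm17484 (0.830) and Ankdd1a (0.825), and none of these was called. These are descriptions over 12 arrays that share 2 groups, picked as extremes of many genes. Values were not scaled by group, so r with Cd93 rests mostly on the pEGFR-Lo mice (SD 1.28, against 0.31 in pEGFR-Hi).

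Of 20 group XIV lectins and binding partners of CD93, 1 was called toward pEGFR-Hi and 3 toward pEGFR-Lo, Clec14a, Cd248 and Igfbp7. Itga5, the integrin subunit for fibronectin, was 2.10-fold higher in pEGFR-Hi (6.89 ± 0.13 in pEGFR-Hi and 5.82 ± 0.14 in pEGFR-Lo, adjusted p = 7.29e-08 from limma). Cd248, a group XIV lectin of pericytes and stromal cells, was 2.76-fold higher in pEGFR-Lo, at 6.07 ± 0.46 in pEGFR-Hi and 7.53 ± 0.60 in pEGFR-Lo. Igfbp7, a matrix protein that binds CD93, was 2.96-fold higher in pEGFR-Lo, at 4.75 ± 0.17 in pEGFR-Hi and 6.32 ± 1.14 in pEGFR-Lo, with overlapping groups and a call that was lost without pEGFR-Lo replicate 1, 2, 3 or 6. The matrix partner Mmrn2 and the lectin Thbd were at background in both groups, with Thbd at 3.76 in pEGFR-Hi and 3.83 in pEGFR-Lo. Itgb1, the integrin chain that CD93 engages, was 9.52 ± 0.13 in pEGFR-Hi and 9.84 ± 0.13 in pEGFR-Lo, short of the 2-fold limit.

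Of 34 genes of the BMP and TGF-beta arm in which endoglin acts, 4 were called toward pEGFR-Hi and 3 toward pEGFR-Lo. Higher in pEGFR-Hi were Mmp14, the membrane protease that sheds endoglin (5.41-fold; 6.89 ± 0.51 in pEGFR-Hi and 4.45 ± 0.18 in pEGFR-Lo), the ligands Tgfb3 (2.46-fold) and Tgfb1 (2.18-fold) and the BMP target Id1 (2.03-fold, a call lost when any of 5 mice was left out). Those toward pEGFR-Lo were Smad3, a signal transducer of TGF-beta receptors (2.10-fold; 7.09 ± 0.15 in pEGFR-Hi and 8.16 ± 0.11 in pEGFR-Lo, adjusted p = 5.48e-08 from limma), Id2, an inhibitor of helix-loop-helix factors (5.10-fold), and the ligand Tgfb2 (3.28-fold). The endothelial receptor Acvrl1, through which endoglin signals, was 4.55 ± 0.13 in pEGFR-Hi and 4.90 ± 0.12 in pEGFR-Lo. Tgfbr2, the type II receptor for TGF-beta, was 7.83 ± 0.17 in pEGFR-Hi and 7.04 ± 0.18 in pEGFR-Lo. Neither receptor differed by the 2-fold needed for a call.

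Among ligands of the marker receptors, Angpt2 was called and the VEGF ligands were not. Of 23 measured VEGF, angiopoietin and co-receptor genes, limma and SAM called 0 toward pEGFR-Hi and 2 toward pEGFR-Lo. At an unadjusted limma p under 0.05, 6 of the 23 passed toward pEGFR-Hi and 7 toward pEGFR-Lo. Angpt2, the angiopoietin that antagonizes TEK in many settings, was 8.42-fold higher in pEGFR-Lo cells, at 5.52 ± 0.17 in pEGFR-Hi and 8.59 ± 0.28 in pEGFR-Lo (adjusted p = 2.96e-11 from limma), beside its receptor Tek at background. Sema3a, a guidance ligand for neuropilins, exceeded its pEGFR-Hi level in pEGFR-Lo cells by at least 3.92-fold. Vegfa, the ligand of KDR and FLT1, was 9.53 ± 0.54 in pEGFR-Hi and 8.73 ± 0.57 in pEGFR-Lo, not called (adjusted p = 0.0251 from limma). Vegfc was 6.70 ± 0.39 in pEGFR-Hi and 7.42 ± 0.14 in pEGFR-Lo, not called.

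Some genes of barrier and of sprouting endothelium are also expressed by neural cells, and several were called. Of 30 measured barrier and transport genes, limma and SAM called 0 toward pEGFR-Hi and 3 toward pEGFR-Lo. These 3 were the lipid transporter Mfsd2a (7.14-fold), the Wnt effector Lef1 (5.85-fold) and the receptor Tnfrsf19 (2.63-fold). At an unadjusted limma p under 0.05, 7 of the 30 passed toward pEGFR-Hi and 9 toward pEGFR-Lo. Of 26 tip cell, arterial and angiogenic genes, 4 were called higher in pEGFR-Hi, among them the Notch target Hey2 (at least 4.56-fold) and the ephrin receptor Ephb4 (3.08-fold). A further 5 were called higher in pEGFR-Lo, among them Angpt2, the ephrin ligand Efnb2 (6.53-fold), the peptide Apln (4.05-fold) and Trp53i11 (2.87-fold).

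Some genes of pericytes, platelets and microglia were called toward pEGFR-Lo, as Cd93 was, while Pdgfrb, Itga2b and Ptprc were not. Of 22 pericyte and smooth muscle genes, 1 was called higher in pEGFR-Hi, the peptidase Anpep, and 2 higher in pEGFR-Lo, the myosin light chain Myl9 (7.70-fold) and Rgs5, a regulator of G-protein signaling in pericytes. At an unadjusted limma p under 0.05, 7 of the 22 passed toward pEGFR-Lo and 2 toward pEGFR-Hi. Over all genes 16.6% passed toward pEGFR-Lo and 19.4% toward pEGFR-Hi at the stricter adjusted p under 0.05. Among those not called, log2 differences were -0.88 for Mylk and -0.63 for Tbx2, toward pEGFR-Lo, and 1.05 for Ndufa4l2, toward pEGFR-Hi. Rgs5 had 3.97 ± 0.30 in pEGFR-Hi and 7.59 ± 1.24 in pEGFR-Lo (at least 11.2-fold, adjusted p = 4.25e-06 from limma), while Pdgfrb ranged from 3.65 to 4.13 in pEGFR-Hi and from 3.62 to 3.94 in pEGFR-Lo. Of 10 measured platelet genes 1 was called, the chemokine Pf4, at 4.01 ± 0.26 in pEGFR-Hi and 6.28 ± 0.87 in pEGFR-Lo, while Itga2b, the platelet integrin, ranged from 4.39 to 4.79 in pEGFR-Hi and from 4.39 to 5.0 in pEGFR-Lo. Of 27 measured microglia and macrophage genes, 2 were called higher in pEGFR-Hi (Cd68 and Cd14) and 1 higher in pEGFR-Lo, the purine receptor P2ry12 (3.36-fold). Ptprc was below background in every mouse.

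In pEGFR-Lo the 2 mice lowest for Cd93, replicates 4 and 5, were also the 2 lowest for Rgs5, Igfbp7, Pf4 and P2ry12, as noticed after the values were seen and given without a test. The order was not particular to genes of vessel and blood cells. It was found in 11 of the other 29 listed genes called toward pEGFR-Lo, among them the ligand Tgfb2 and the astrocyte transporter Slc1a3, and in 225 of the other 1008 genes called toward pEGFR-Lo over all genes (22.3%). Rgs5 was 8.52, 8.28, 8.80, 6.44, 5.72 and 7.79 in pEGFR-Lo replicates 1 to 6, and Pf4 was 6.74, 5.73, 7.07, 5.70, 5.14 and 7.30. Eng did not share this order, since replicate 4 was its highest pEGFR-Lo mouse. Nor did the pericyte gene Myl9 and the neutrophil gene Lcn2, both called toward pEGFR-Lo. Replicate 5 was the highest pEGFR-Lo mouse for each, at 8.85 for Myl9 and 7.51 for Lcn2. The mean level of the pericyte list was 4.40 to 4.82 in pEGFR-Hi and 4.68 to 4.99 in pEGFR-Lo, that of the platelet list 4.14 to 4.28 in pEGFR-Hi and 4.31 to 4.54 in pEGFR-Lo, and that of the microglia list 3.78 to 3.88 in pEGFR-Hi and 3.74 to 4.18 in pEGFR-Lo. The part of such cells in the Cd93 and Eng values was not tested.

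**Figure D3:**
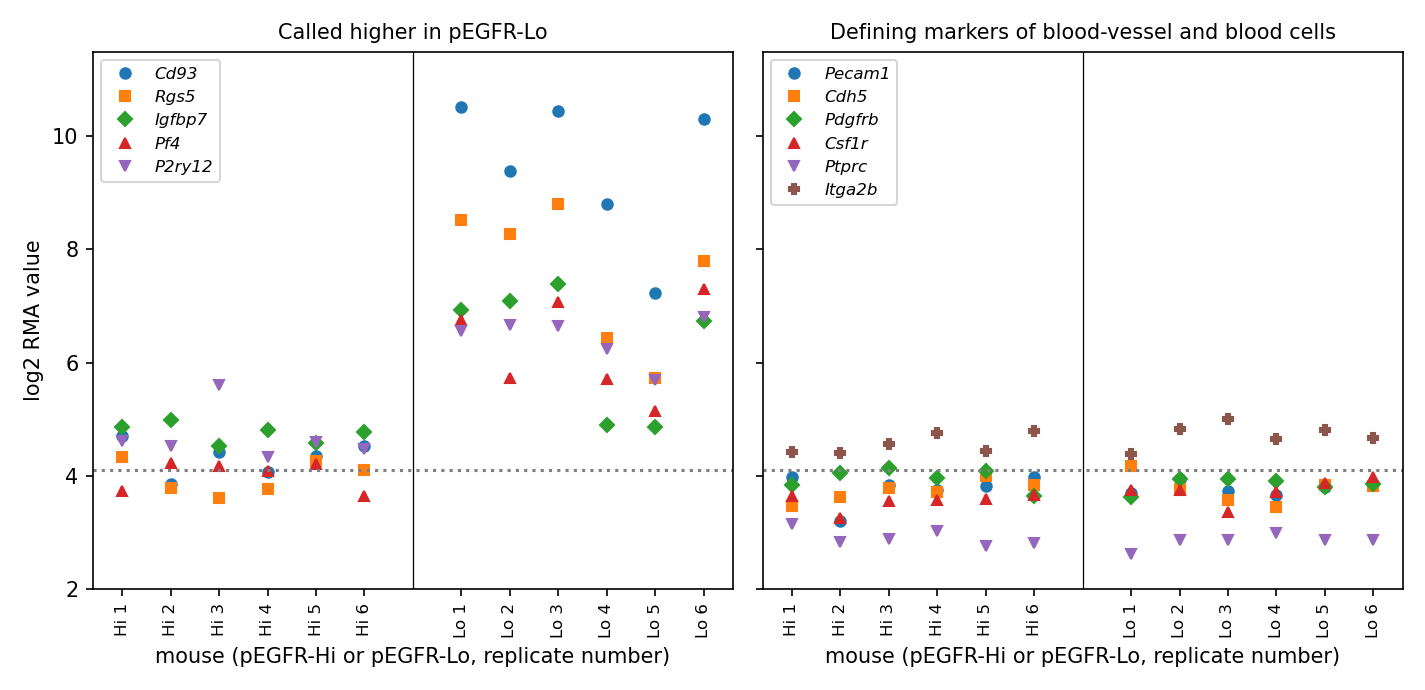
Log2 RMA value (y axis) in each mouse (x axis; 6 pEGFR-Hi at left and 6 pEGFR-Lo at right of the vertical line) of Cd93 and 4 genes called higher in pEGFR-Lo (left panel) and of 6 defining genes chosen from those of vessel and blood cells (right panel). The dotted line is the background level of 4.10. Replicates 4 and 5 of pEGFR-Lo are the lowest pEGFR-Lo mice for Cd93, Rgs5, Igfbp7, Pf4 and P2ry12. Myl9 and Lcn2, also called higher in pEGFR-Lo, did not share this order and are not shown. At right, Itga2b lies above the line in every mouse, at 4.39 to 5.0, and the other genes lie near the line or under it. Acta2, a defining gene of smooth muscle that was above background in every mouse, is not shown.

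The lists of other cell types are given beside the 9.05% called over all genes. Of 11 astrocyte genes 1, the filament protein Gfap, was called higher in pEGFR-Hi (2.69-fold) and 5 higher in pEGFR-Lo, among them S100b (20.0-fold) and the glutamate transporters Slc1a3 (13.6-fold) and Slc1a2 (6.51-fold) and the lipid enzyme Acsbg1 (2.93-fold), the direction of Cd93 and Eng. The mean of the astrocyte list was 6.39 to 6.65 in pEGFR-Hi and 7.51 to 8.0 in pEGFR-Lo. Of 15 neutrophil genes 1, Lcn2, was higher in pEGFR-Lo (3.77-fold). Limma and SAM called 0 of 5 measured erythroid genes, 0 of 15 lymphocyte genes and 0 of 13 neuron genes. At an unadjusted limma p under 0.05, 1 erythroid gene passed toward pEGFR-Hi, 0 lymphocyte genes passed and 5 neuron genes passed toward pEGFR-Lo. The mean of the neuron list was 3.74 to 3.81 in pEGFR-Hi and 3.85 to 4.12 in pEGFR-Lo, around or under background. Of 15 fibroblast and meningeal genes 1 was called toward pEGFR-Lo, Crym (5.01 ± 0.48 in pEGFR-Hi and 7.35 ± 1.76 in pEGFR-Lo, overlapping), and this count was 0 to 2 when single mice were left out. Of 10 oligodendrocyte genes, the myelin enzyme Cnp was called toward pEGFR-Hi (2.66-fold) and Ermn toward pEGFR-Lo (at least 2.57-fold). Of 14 progenitor genes 2 were called toward pEGFR-Hi, Prom1 (at least 3.58-fold) and the hyaluronan receptor Cd44 (2.08-fold), and 1 toward pEGFR-Lo, the lipid-binding protein Fabp7 (2.58-fold). Each progenitor count was 1 to 2 when single mice were left out, since Cd44 was not called without pEGFR-Lo replicate 3 or 6 and a further gene was called toward pEGFR-Lo without pEGFR-Hi replicate 1 or pEGFR-Lo replicate 4 or 5.

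Cd93 and Eng both lie on mouse chromosome 2 but far apart, and of their nearest measured neighbors only one, beside Eng, was called. The 3 genes before Cd93 in RefSeq order (Foxa2, Sstr4 and Thbd) and the 3 after it (Nxt1, Gzf1 and Napb) were not called; Nxt1, a factor of mRNA export, was 8.51 in pEGFR-Hi and 7.90 in pEGFR-Lo, opposite in direction to Cd93. Beside Eng, the adenylate kinase Ak1 was 5.81 ± 0.40 in pEGFR-Hi and 7.21 ± 0.29 in pEGFR-Lo, 2.65-fold higher in pEGFR-Lo cells (limma, adjusted p = 7.13e-06), close in size to the difference of Eng. The other 5 neighbors of Eng were not called. Among them St6galnac6 was 7.55 in pEGFR-Hi and 7.94 in pEGFR-Lo, the direction of Eng, and its groups did not overlap. The mean of Sh2d3c was also higher in pEGFR-Lo, and those of St6galnac4, Fpgs and Cdk9 were higher in pEGFR-Hi.

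**Figure D4:**
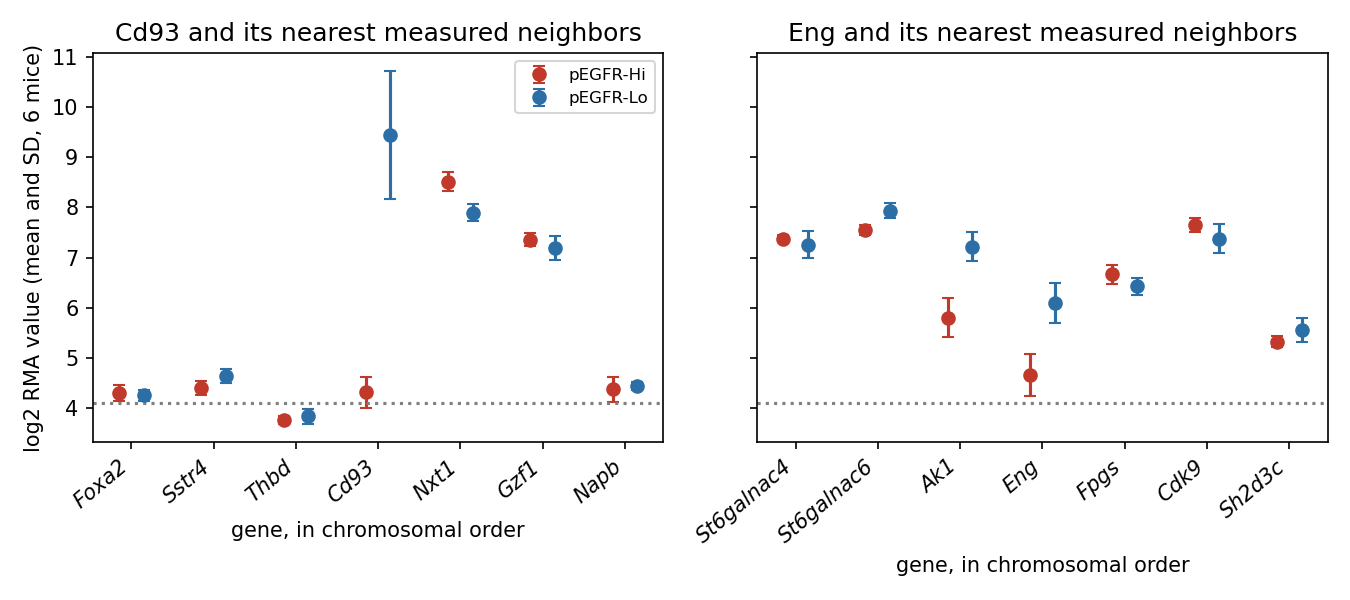
Log2 RMA value as mean and SD over 6 mice (y axis) of Cd93 (left panel), Eng (right panel) and the 3 nearest measured genes on each side in chromosomal order (x axis), with pEGFR-Hi in red at left of each pair and pEGFR-Lo in blue at right. Beside Cd93 no neighbor differs by 2-fold, while Ak1, next to Eng, is higher in pEGFR-Lo at 7.21 against 5.81 in pEGFR-Hi.

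Many endothelial promoters hold sites for ETS transcription factors, whose core is GGAA. Promoter sequences from RefSeq (GRCm38.p6, 250 bases before and 50 after the start) were matched for 7 of the 10 markers, Eng, Emcn, Tek, Tie1, Kdr, Flt1 and Cldn5. Those of Eng, higher in pEGFR-Lo, of Flt1, higher in pEGFR-Hi, and of Tie1, at background, are shown to set the 3 patterns side by side, with GGAA and its reverse complement TTCC in capitals. They lie at chr2:32646345-32646644 on the plus strand for Eng, chr5:147725962-147726261 on the minus strand for Flt1 and chr4:118489800-118490099 on the minus strand for Tie1.
Eng: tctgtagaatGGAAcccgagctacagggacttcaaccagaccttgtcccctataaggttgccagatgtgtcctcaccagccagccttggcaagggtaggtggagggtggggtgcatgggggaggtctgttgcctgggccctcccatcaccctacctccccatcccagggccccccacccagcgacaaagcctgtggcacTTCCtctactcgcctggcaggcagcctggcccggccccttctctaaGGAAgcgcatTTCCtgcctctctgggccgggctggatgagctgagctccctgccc
Flt1: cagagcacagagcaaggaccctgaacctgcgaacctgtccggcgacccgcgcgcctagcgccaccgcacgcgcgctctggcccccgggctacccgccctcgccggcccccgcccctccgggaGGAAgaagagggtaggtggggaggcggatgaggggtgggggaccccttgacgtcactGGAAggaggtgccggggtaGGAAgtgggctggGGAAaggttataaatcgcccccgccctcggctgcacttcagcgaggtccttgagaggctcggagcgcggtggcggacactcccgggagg
Tie1: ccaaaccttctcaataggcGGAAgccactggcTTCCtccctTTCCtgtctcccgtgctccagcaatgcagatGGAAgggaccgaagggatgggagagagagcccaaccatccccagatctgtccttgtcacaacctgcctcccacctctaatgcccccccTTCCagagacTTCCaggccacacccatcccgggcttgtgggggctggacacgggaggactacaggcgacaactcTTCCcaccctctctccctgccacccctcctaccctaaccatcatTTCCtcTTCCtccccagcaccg
Counted on both strands, GGAA occurred 4 times in the Eng promoter, 4 times in Flt1 and 9 times in Tie1, beside 6 times in Emcn, 5 in Kdr, 2 in Tek and 0 in Cldn5. Of all 32851 promoters of the same length 96.0% hold it at least 1 time, with a median of 3, 46.3% hold at least 4 and 1.59% hold at least 9. A match describes letters in this window only.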

How the data were processed

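RNA of ZsGreen+ tumor cells from 6 pEGFR-Hi and 6 pEGFR-Lo mice was hybridized to Affymetrix Mouse Gene 1.0 ST arrays. The deposited values are log2 intensities that the authors normalized by RMA in Affymetrix Expression Console; RMA compresses differences of dim genes, and its background and quantile steps were not repeated. Of 35556 probe sets, 21789 carry 1 symbol, 1621 several and 12146 none; the brightest of a gene's probe sets by mean over all 12 arrays was kept, which leaves 19938 genes. No 2 arrays were identical. Number of arrays limits the precision. The limma p-values set the difference between the groups against the spread among mice grafted with the same line, not against a spread among lines.

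limma 3.58.1 in R 4.3.3 (lmFit, eBayes) was fitted over all genes; SAM (own implementation, 100 permutations) was the alternative named in the study's methods. On simulated data limma called 99 of 100 genes changed by 1.5 and 99 of 100 changed by 2 on the log2 scale among 19938 genes, with 0 false calls. Where the dimmer group's mean was at or below background, "at least" gives the brighter mean over the background level; where both were, no fold is given. Correlations used exact two-sided permutation of 6 mice. Python 3.11.15 and scipy 1.17.1 were used.

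The 10 markers and all gene lists were chosen with earlier results of these data known, and no p is printed for the difference of a marker between the groups, only which thresholds it passed. Named genes are all markers, up to 4 and 2 genes per list with the smallest adjusted p in the direction with more and with fewer calls, defining cell type genes, signaling partners, the 5 genes most like Cd93 and Eng, and 3 neighbors on each side. Tgfb2 and Mylk are named in addition. Some genes under these rules are not named, among them the defining genes S100a8, Alas2, Cd3e, Snap25, Mbp, Aqp4, Egfr and Nes. Zic1 of the pericyte list is also not named. Alternatives were SAM, centering of arrays on their medians, a further quantile step, a filter on background, a replicate block, trend and robust eBayes, a looser threshold, the mean of probe sets, and leaving out mice.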

Additional observations from a re-analysis of the deposited data

Results flagged for a closer look

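Of 22 groups of 6 values checked, 1 end value stood apart from the rest in 2, where chance gives about 1 in 20. Pecam1 in pEGFR-Hi replicate 2 was 3.19, with the next value at 3.74. Emcn in pEGFR-Hi replicate 6 was 2.75, with the next value at 2.44. Both genes were below background in that group.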

How the results depend on the processing

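Cd93 and Eng were called higher in pEGFR-Lo under every alternative run, with differences of -5.57 to -4.91 for Cd93 and -1.56 to -1.29 for Eng when each mouse was left out in turn. Without the fold limit and with a threshold of 0.05 on the adjusted p, 1 marker was called higher in pEGFR-Hi, 6 of the 34 endothelial genes were higher in pEGFR-Hi and 4 higher in pEGFR-Lo, and over all genes 3871 were higher in pEGFR-Hi and 3314 higher in pEGFR-Lo, against 795 and 1009 with the fold limit. Other settings gave 737 to 846 genes higher in pEGFR-Hi and 975 to 1052 higher in pEGFR-Lo. Replicate numbers did not pair the mice (r of same-numbered mice -0.137 to 0.097, and 1 of 6 was most like its own number), and with the number as a replicate block 801 genes were higher in pEGFR-Hi and 1008 higher in pEGFR-Lo, with 0 and 2 of the 10 markers.

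Differences near 0 changed sign: that of Pecam1 was 4.17e-05 with arrays centered and ranged from -0.068 to 0.090 on leaving out mice, and that of Tek was -0.047 after quantile normalization and ranged from -0.035 to 0.089 on leaving out mice. Left-out mice moved r for Cd93 with the endothelial mean over -0.55 to 0.52 in pEGFR-Hi and -0.80 to -0.050 in pEGFR-Lo, for Eng over -0.17 to 0.82 in pEGFR-Hi and -0.64 to -0.018 in pEGFR-Lo, and for Cd93 with Eng over -0.46 to 0.12 in pEGFR-Hi and -0.76 to 0.84 in pEGFR-Lo. Array signal over background limits Pecam1, Tek, Esam, Tie1 and Emcn, for which a small amount of transcript could be missed. The cause of these changes was not tested.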
